A study of Caenorhabditis elegans with 6 samples.

Results

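The 9 genes unc-30, unc-25, unc-47, unc-46, unc-49, unc-55, oig-1, irx-1 and acr-12 were followed as a set that serves the GABA motor neurons of the nematode Caenorhabditis elegans and the rewiring of their synapses during larval life. They were chosen by name, found by WormBase identifier, and all 9 were among the 20190 genes counted and among the 15024 genes that passed the expression filter. The libraries hold polyadenylated RNA of whole larvae in the first stage (L1), so each value is summed over every cell of the animal, and fewer cells of a type and less RNA per cell cannot be told apart.

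Larvae of 3 genotypes were compared, with 2 libraries each. HW3826 carries maIs105 [col-19::gfp], a reporter transgene built on the gene of an adult epidermal collagen, and the series design text equates this strain with VT1367. GR1395 carries mgIs49, which joins mlt-10p::gfp::pest to ttx-3::gfp. The first part is a short-lived GFP under the promoter of a molting gene of the epidermis, and the other part reports a homeobox gene of the AIY interneurons. The growth text spells this strain GR1935. N2 is the wild type and carries neither array. Starved larvae of each strain were synchronised in M9 buffer and then kept at 25 °C for 4 hours. The series asks how large transgene arrays change a phenotype of myrf-1, and none of the 6 libraries is from a myrf-1 mutant. No label says that the libraries of a strain came from separate cultures, so the p-values below measure library-to-library spread alone, and that spread may be technical.

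GABA is the main inhibitory transmitter of this animal's motor circuit. The DD neurons are among the GABA motor neurons present at hatching. In the young larva they release GABA onto ventral body wall muscle. Later they move their output synapses to dorsal muscle without changing their overall shape. The VD neurons, born later in the first larval stage, keep their output on ventral muscle. This move needs the membrane-bound transcription factor MYRF-1, and its timing is set by heterochronic factors such as LIN-14 and HBL-1.

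Library totals were between 42593688 and 54957641 counts, and 3 counts, taken as the floor, equal 0.0546 to 0.0704 CPM (counts scaled by library total), a limit for counting error only. The 9 genes had between 15 counts, for unc-55, and 8089 counts, for unc-49, in a library. Replicate libraries of a strain differed by more than counting noise, with a chi-square per degree of freedom of 8.91 in HW3826, 13.2 in GR1395 and 23.8 in N2. N2 replicate 2 stood apart by transcript length: its log2 CPM lay at a median of -0.147 relative to the 6-library mean in the longest 20% of the tested genes and at 0.0797 in the shortest 20%.

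Scaled by the deposited gene length and by library total (RPKM), the levels of the 9 genes covered a wide range. unc-25 was the most abundant at a mean of 39.8 RPKM over the 6 libraries, above 82.2% of the tested genes, followed by unc-49 at 28.6 RPKM, irx-1 at 19.8 RPKM and oig-1 at 10.4 RPKM. The ranges of these 4 genes over the 6 libraries did not overlap. unc-30 followed at 6.11 RPKM, then unc-47 at 4.46, unc-46 at 3.57 and acr-12 at 3.47 RPKM, and in this lower group the range of each gene overlapped that of the next. Within each of the 6 libraries unc-30 was still above unc-47 and unc-47 above unc-46, while unc-46 was above acr-12 in 4 of 6. unc-55 was far lower, at 0.347 RPKM, above 6.85% of the tested genes. This order was the same in HW3826 and GR1395. In N2, acr-12 at 3.13 ± 0.513 RPKM and unc-46 at 2.99 ± 0.196 RPKM (SD, n = 2 libraries) were the only neighbours to change places. The deposited lengths differ from the summed exon lengths of the annotation used for names. They are 998 against 1191 bases for unc-46 and 2015 against 2059 bases for acr-12, so the order of these close genes depends on the length used.

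**Figure D1:**
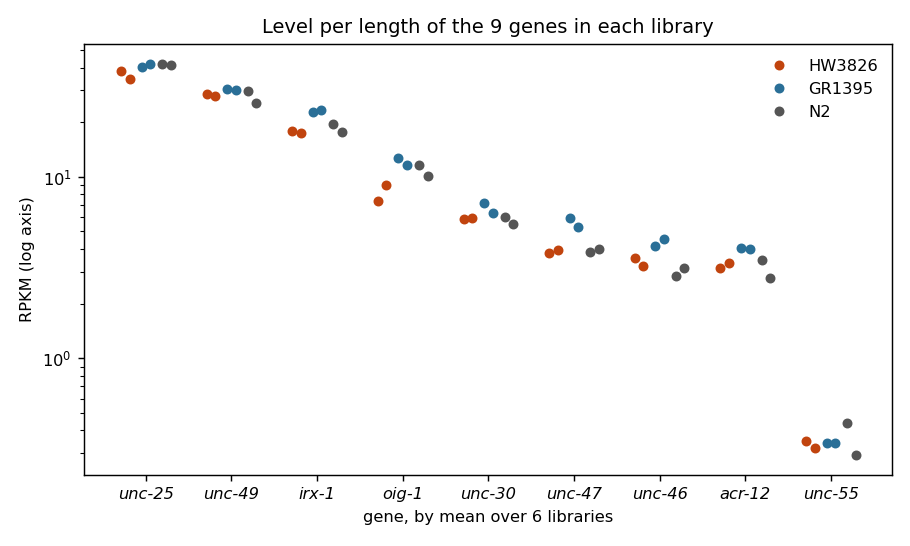
Level per length (RPKM, log axis) of the 9 genes in each of the 6 libraries, ordered by the mean over all libraries, with 1 point per library coloured by strain. unc-25 lies at 34.5 to 42.1 RPKM and unc-55 at 0.292 to 0.441 RPKM. The log axis makes the strains look close together, while the highest library was 1.19-fold (unc-49) to 1.73-fold (oig-1) above the lowest.

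The transcription factor genes come first. unc-30 (IV, 13118977 to 13124406, plus strand, protein coding) encodes the Pitx-type homeodomain factor that gives DD and VD neurons their GABA identity. It had 7.18 and 7.21 CPM in HW3826, 8.73 and 7.70 CPM in GR1395 and 7.33 and 6.67 CPM in N2. The GR1395 libraries were the highest and did not overlap with those of N2, whereas HW3826 lay within the N2 range. The log2 fold change was 0.04 in HW3826 over N2 (95% interval -0.23 to 0.31) and 0.19 in GR1395 over N2 (-0.08 to 0.45), and neither passed (edgeR adjusted p = 0.911 and 0.327). A change larger than 1.24-fold up in HW3826 lay outside the interval.

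unc-55 (I, 7898434 to 7903334, minus strand) encodes a nuclear receptor of the COUP-TF type that acts in VD neurons to keep them from rewiring as DD neurons do. It had 21 and 17 counts in HW3826, 21 and 18 in GR1395 and 21 and 15 in N2. The counts of the strains overlapped. At this depth the interval of HW3826 over N2 ran from 0.476-fold to 1.78-fold, so a smaller difference was not detectable. The gene F55D12.6, which overlaps unc-55 on the opposite strand, had 0 counts in every library.

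irx-1 (I, 9536465 to 9540966, minus strand) encodes an Iroquois homeodomain factor that acts in DD neurons to promote rewiring and is kept low in VD neurons by UNC-55. It had 33.4 and 32.6 CPM in HW3826, 42.7 and 43.8 CPM in GR1395 and 36.3 and 32.9 CPM in N2. The GR1395 libraries were above every other library, and HW3826 overlapped with N2. irx-1 rose 1.21-fold in GR1395 over N2 (log2 0.28, SE 0.08, edgeR adjusted p = 0.0339) and was at 0.786-fold in HW3826 over GR1395 (log2 -0.35, SE 0.08, adjusted p = 0.0121). In HW3826 over N2 the log2 fold change was -0.07 (adjusted p = 0.705). C41G7.7, which shares exon sequence with irx-1 on the same strand, had 20 to 38 counts in a library against 1509 to 2346 for irx-1. Whether the authors' counting used strand is not given in the sources used here.

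Next are the genes that make and load GABA. unc-25 (III, 12942651 to 12949883, plus strand) encodes glutamate decarboxylase, the enzyme that makes GABA, and is a direct target of UNC-30. It had 67.4 and 61.0 CPM in HW3826, 71.5 and 74.3 CPM in GR1395 and 74.3 and 73.2 CPM in N2. HW3826 was the lowest strain and overlapped with neither of the others, while GR1395 overlapped with N2. The fold in HW3826 over N2 was 0.87 (log2 -0.20, SE 0.08), with an unadjusted p of 0.0252 that did not pass after adjustment over all tested genes (adjusted p = 0.179). In GR1395 over N2 the log2 fold change was -0.06 (95% interval -0.23 to 0.11).

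unc-47 (III, 10183762 to 10186260, minus strand) encodes the vesicular transporter that loads GABA into synaptic vesicles and is likewise a direct target of UNC-30. It had 6.32 and 6.56 CPM in HW3826, 9.83 and 8.80 CPM in GR1395 and 6.41 and 6.69 CPM in N2. Both GR1395 libraries were above the other 4, and HW3826 overlapped with N2. unc-47 rose 1.38-fold in GR1395 over N2 (log2 0.46, SE 0.12, edgeR adjusted p = 0.0238) and was at 0.712-fold in HW3826 over GR1395 (log2 -0.49, SE 0.12, adjusted p = 0.0177). HW3826 over N2 gave -0.03 (95% interval -0.30 to 0.24).

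unc-46 (V, 5097075 to 5099025, minus strand) encodes a LAMP-like protein that sorts the UNC-47 transporter to synaptic vesicles. It had 3.58 and 3.21 CPM in HW3826, 4.13 and 4.53 CPM in GR1395 and 2.84 and 3.12 CPM in N2. The 3 strains did not overlap with each other. GR1395 over N2 gave the largest estimate among the 9 genes in that comparison, 1.40-fold (log2 0.49, 95% interval 0.12 to 0.86), on 121 to 227 counts in a library, and it did not pass (edgeR adjusted p = 0.0668). HW3826 over N2 gave 0.19 (adjusted p = 0.624). C04F5.2, which shares exon sequence with unc-46 on the same strand, had 15 to 27 counts in a library and did not pass in any comparison, the lowest adjusted p being 0.355.

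The target cells and the receiving side of the DD neurons are represented by 3 genes. unc-49 (III, 10520762 to 10532705, plus strand, 14 annotated transcripts) encodes the subunits of the GABA-gated chloride channel of body wall muscle, made by alternative splicing, and counts per gene do not separate those subunits. It had 138 and 134 CPM in HW3826, 147 and 145 CPM in GR1395 and 143 and 124 CPM in N2. The GR1395 libraries lay closely together above the rest, and HW3826 lay within the N2 range. The log2 fold changes of 0.03 in HW3826 over N2 and 0.08 in GR1395 over N2 had intervals within -0.14 to 0.25. With the length trend of each library removed they were -0.11 and -0.06, so the direction depended on that choice.

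oig-1 (III, 6524051 to 6525657, minus strand) encodes a single-immunoglobulin-domain protein that DD neurons make before they rewire and that holds their early synaptic pattern in place. It had 3.69 and 4.52 CPM in HW3826, 6.37 and 5.84 CPM in GR1395 and 5.82 and 5.08 CPM in N2. HW3826 was the lowest strain and overlapped with neither of the others. oig-1 was at 0.692-fold in HW3826 over GR1395 (log2 -0.53, SE 0.15, edgeR adjusted p = 0.0327), the largest difference among the 9 genes. Against N2 the HW3826 value was 0.752-fold (log2 -0.41, SE 0.15), with an unadjusted p of 0.0188 and an adjusted p of 0.15 that did not pass.

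acr-12 (X, 13532853 to 13536459, plus strand) encodes an acetylcholine receptor subunit through which GABA motor neurons receive excitation. It had 6.37 and 6.75 CPM in HW3826, 8.13 and 8.04 CPM in GR1395 and 7.04 and 5.58 CPM in N2. GR1395 was above the other strains, and HW3826 lay within the N2 range. The 1.24-fold value of GR1395 over N2 (log2 0.31, SE 0.14) had an adjusted p of 0.13 and did not pass. The N2 libraries lay farther apart than those of the other strains, so that the value was 0.47 (adjusted p = 0.048) without N2 replicate 1 and 0.17 (adjusted p = 0.575) without N2 replicate 2.

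**Figure D2:**
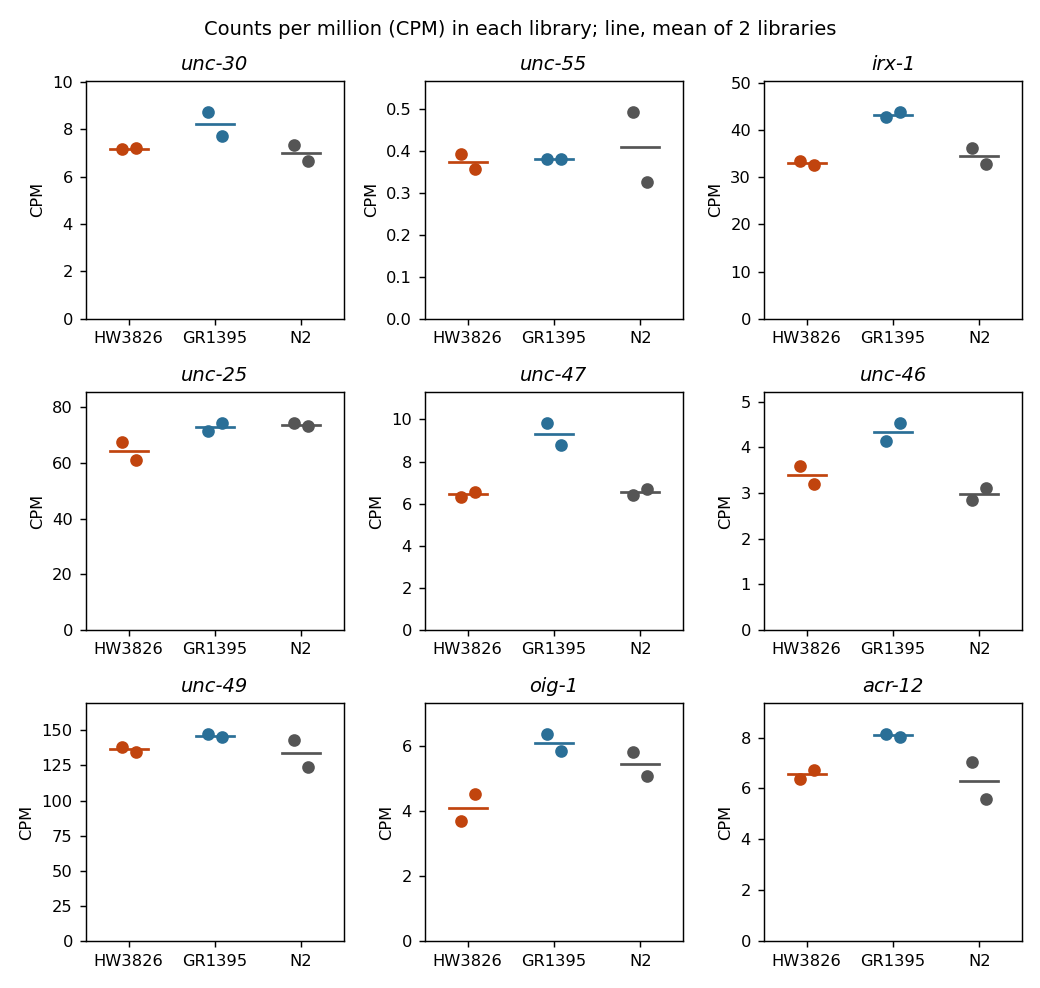
Counts scaled by library total (CPM) of each of the 9 genes in HW3826, GR1395 and N2, with 1 point per library and a line at the mean of 2 libraries, each panel with its own axis from 0. unc-47 and irx-1 stand higher in both GR1395 libraries than in the other 4, at 9.83 and 8.80 CPM and at 42.7 and 43.8 CPM, and oig-1 is lowest in HW3826, at 3.69 and 4.52 CPM.

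The comparison of HW3826 with N2 addresses what differs in the strain with maIs105. edgeR called 0 of the 9 genes, beside 6.0% of all genes tested, 3.54% called higher and 2.46% called lower. At an unadjusted edgeR p under 0.05 there were 2, unc-25 and oig-1, both lower in HW3826, and DESeq2 and limma-voom called 0. The share of all tested genes at an unadjusted p under 0.05 was not counted, here or for the lists below. Such counts therefore have no background beside them. The median log2 fold change of the 9 was -0.03, beside -0.01 over all tested genes, with 4 positive and 5 negative values. The libraries of HW3826 and N2 did not overlap for 3 of the 9, unc-25, unc-46 and oig-1, beside 47.9% of all tested genes.

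The comparison of GR1395 with N2 addresses what differs in the strain with mgIs49. Here 2 of the 9 genes passed, unc-47 and irx-1, and both rose, beside 16.1% of all genes tested, 7.93% called higher and 8.15% called lower. With 9 genes this count is a description, near the background. The median log2 fold change of the 9 was 0.19, beside 0.01 over all tested genes, and 7 of 9 values were positive, the exceptions being unc-25 and unc-55. GR1395 and N2 did not overlap for 7 of the 9, beside 59.6% of all tested genes. The call of unc-47 ended without either N2 or either GR1395 library, at adjusted p between 0.0523 and 0.174. That of irx-1 ended without N2 replicate 2, either HW3826 library or either GR1395 library (0.0596 to 0.171), and also with DESeq2 (0.0511) or with HW3826 left out of the fit (0.06).

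In HW3826 over GR1395, 3 of the 9 genes passed, oig-1, unc-47 and irx-1, and all 3 were lower in HW3826, beside 14.5% of all genes tested, 7.33% called higher and 7.17% called lower. The median of the 9 was -0.26, beside -0.01 over all tested genes. HW3826 and GR1395 did not overlap for 8 of the 9 genes, unc-55 being the exception, beside 62.1% of all tested genes. The call of unc-47 ended without either HW3826 library or GR1395 replicate 1 (adjusted p 0.0727 to 0.156), that of irx-1 without any of the 4 libraries compared (0.0532 to 0.0967), and that of oig-1 without HW3826 replicate 1 or either GR1395 library (0.0791 to 0.264) and with DESeq2 (0.0651). This comparison shares its GR1395 libraries with the one before it, and a count over 9 genes is likewise a description.

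**Figure D3:**
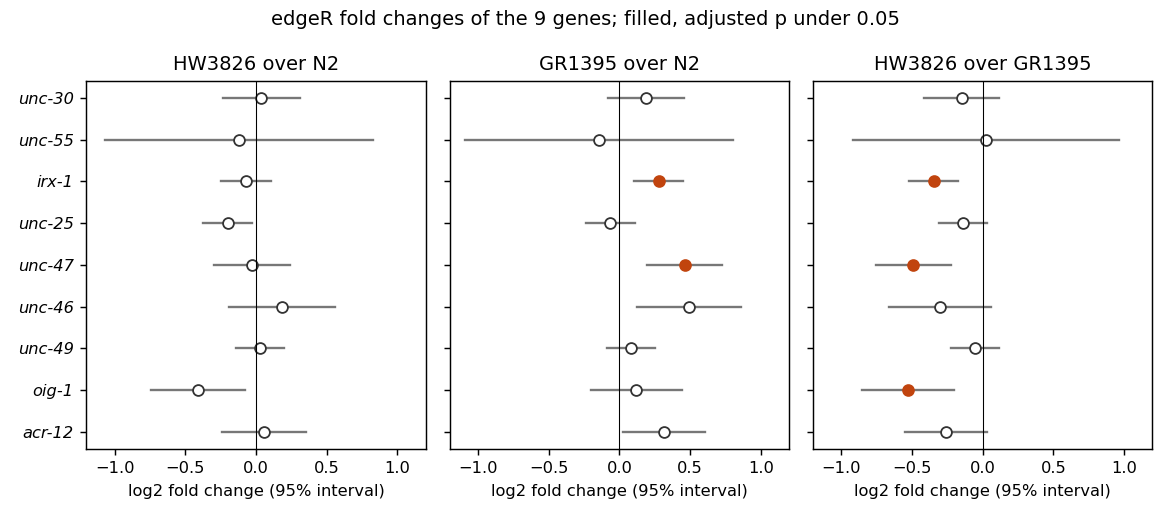
log2 fold change (edgeR) of the 9 genes in the 3 comparisons, with 95% intervals, filled where the adjusted p over all 15024 tested genes was under 0.05. No gene is filled in HW3826 over N2, unc-47 (0.46) and irx-1 (0.28) are filled in GR1395 over N2, and oig-1 (-0.53), unc-47 (-0.49) and irx-1 (-0.35) in HW3826 over GR1395.

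As a sum, markers of all neurons were also highest in GR1395. The summed level of 16 pan-neuronal markers was 2680 and 2625 CPM in HW3826, 3020 and 2943 CPM in GR1395 and 2785 and 2611 CPM in N2, and none of the 16 was at 0. In GR1395 over N2, 13 of the 16 had positive values, with a median of 0.17, and ric-4, egl-21 and sbt-1 had negative ones. Of the 16, 3 passed, each higher, beside 16.1% of all genes tested. They were the active zone gene unc-10 (0.32), the vesicle priming gene unc-13 (0.38) and the dense core vesicle gene unc-31 (0.35). In HW3826 over GR1395, 15 of 16 were negative and 2 passed, each lower, beside 14.5% of all genes tested. These were the synaptobrevin gene snb-1 (-0.26) and the endocytosis gene ehs-1 (-0.24). In HW3826 over N2 edgeR called unc-10 alone (0.33), beside 6.0% of all genes tested, and DESeq2 also called unc-13 as higher (adjusted p = 0.0484, against 0.0895 by edgeR). With 16 genes the edgeR counts are a description, near the background. The ehs-1 call ended with DESeq2 (0.0629) and limma-voom (0.0524). The edgeR calls against N2 ended without N2 replicate 2. They also ended without either library of the array strain, except that unc-10 in GR1395 ended without GR1395 replicate 1 and held without replicate 2, and the calls of snb-1 and ehs-1 ended without any 1 of the 4 libraries compared (adjusted p up to 0.268). The calls of unc-10, unc-13 and unc-31 also ended with the length trend removed (0.0514 to 0.161).

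The 9 genes were also set against the summed pan-neuronal counts, a scaling chosen after the values were seen. The sum is weighted to its most abundant genes: in N2 replicate 1 egl-3, egl-21 and sbt-1 had 782, 579 and 276 of its 2785 CPM. Their log2 fold changes in GR1395 over N2 were 0.07, -0.002 and -0.006, beside a list median of 0.17. Per 1000 pan-neuronal counts unc-47 had 2.36 and 2.497 in HW3826, 3.25 and 2.99 in GR1395 and 2.30 and 2.56 in N2. irx-1 had 12.4 and 12.4 in HW3826, 14.1 and 14.9 in GR1395 and 13.04 and 12.6 in N2. oig-1 had 1.38 and 1.72 in HW3826, 2.11 and 1.98 in GR1395 and 2.09 and 1.95 in N2. unc-25 had 25.2 and 23.2 in HW3826, 23.7 and 25.2 in GR1395 and 26.7 and 28.0 in N2, so that GR1395 lay below N2. unc-46 and acr-12 were highest in GR1395, and unc-30, unc-49 and unc-55 overlapped between GR1395 and N2. The GR1395 libraries stayed above the others for unc-47 and irx-1, and the HW3826 libraries below the others for oig-1. The fitted differences became smaller: unc-47 was at 0.36 in GR1395 over N2 (adjusted p = 0.0677) and at -0.37 in HW3826 over GR1395 (0.06), irx-1 at 0.18 (0.153) and -0.22 (0.0726), and oig-1 at -0.40 in HW3826 over GR1395 (0.0799). With this scaling 0 of the 9 genes passed in any comparison. How many of all tested genes passed with it was not counted, so this 0 has no background beside it. Whether the pan-neuronal level accounts for the lost calls was not tested. The scaling moved the median log2 fold change of all tested genes to -0.09 in GR1395 over N2 and to 0.12 in HW3826 over GR1395.

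**Figure D4:**
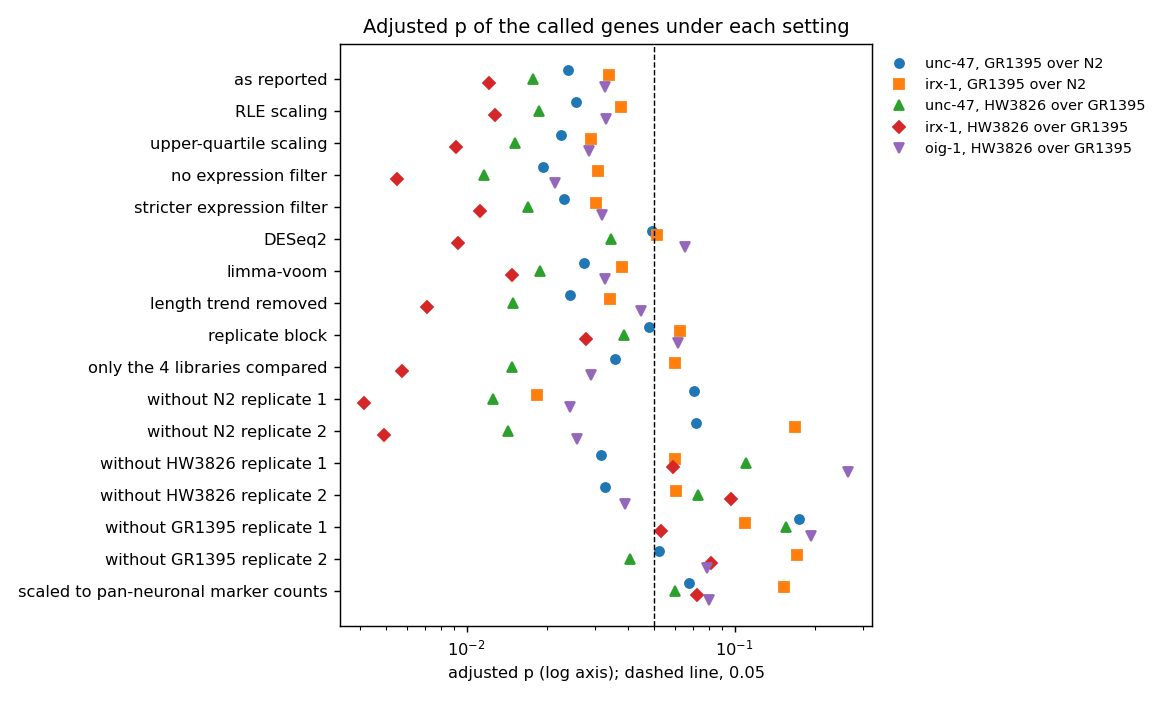
Adjusted p (log axis) of unc-47, irx-1 and oig-1 in the comparisons that called them, as reported and under each other setting. The points lie below 0.05 as reported and lie above it in several of the settings that leave out a library and with scaling to pan-neuronal marker counts.

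Of 9 further genes of GABA signalling 1 passed, in a single comparison. None of the 9 passed in HW3826 over N2 by edgeR, DESeq2 or limma-voom, with 2 higher at an unadjusted p under 0.05. The metabotropic GABA receptor gene gbb-1 rose in GR1395 over N2, with 44.1 and 42.3 CPM in GR1395 and 36.04 and 29.9 CPM in N2 (log2 0.35, SE 0.09, edgeR adjusted p = 0.0249). Leaving out N2 replicate 2 or a GR1395 library of either number ended its call (up to 0.168). Its partner gbb-2 had 0.17 (adjusted p = 0.129). In HW3826 over N2 gbb-2 had 0.14, and gta-1, which encodes the GABA-degrading transaminase, had -0.05. None of the 9 passed in HW3826 over GR1395 by any of the 3 tools, and 0 did at an unadjusted p under 0.05, with gta-1 at 0.11 and gbb-2 at -0.03.

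Among 8 markers and regulators of GABA neuron identity, flp-13, a neuropeptide gene of the DD neurons, had 45.2 and 51.7 CPM in HW3826, 59.8 and 61.6 CPM in GR1395 and 50.2 and 46.3 CPM in N2. Both GR1395 libraries were above the other 4. flp-13 rose in GR1395 over N2 (log2 0.28, SE 0.08, edgeR adjusted p = 0.0337) and was lower in HW3826 over GR1395 (-0.28, adjusted p = 0.0348). ttr-39, a transthyretin-like gene of the DD and VD neurons, had 5.38 and 5.72 CPM in HW3826, 8.57 and 7.34 CPM in GR1395 and 8.12 and 7.54 CPM in N2. HW3826 was the low strain, and ttr-39 fell both in HW3826 over N2 (-0.50, SE 0.13, adjusted p = 0.0385) and in HW3826 over GR1395 (-0.48, adjusted p = 0.0256). The other 6 of the 8 did not pass in any comparison. Removal of a GR1395 library ended both flp-13 calls, and so did that of N2 replicate 2 for the call against N2 and of HW3826 replicate 1 for the other (up to 0.354). The ttr-39 calls ended without an HW3826 library of either number, the one against N2 also without either N2 library and the other without GR1395 replicate 1 (up to 0.219). The call against N2 also ended with the length trend removed (0.0661) and by DESeq2 (0.0556) and limma-voom (0.0513), and the call against GR1395 ended with DESeq2 (0.0521).

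Of 15 further genes with a part in DD rewiring or its timing, myrf-1 had 144 and 164 CPM in HW3826, 114 and 132 CPM in GR1395 and 131 and 114 CPM in N2. It was higher in HW3826 over GR1395 (log2 0.37, SE 0.10, edgeR adjusted p = 0.0253), a call lost on removal of GR1395 replicate 1 or HW3826 replicate 2 (up to 0.239), and did not pass by edgeR in HW3826 over N2 (0.33, adjusted p = 0.0712) or GR1395 over N2 (-0.04). The non-call against N2 depended on the tool, since DESeq2 called myrf-1 as higher in HW3826 over N2 (adjusted p = 0.0306) and limma-voom did not (0.0842). dlk-1, which encodes a kinase that acts on microtubule dynamics in these neurons, had 160 and 159 CPM in HW3826, 229 and 201 CPM in GR1395 and 145 and 139 CPM in N2. It rose in GR1395 over N2 (0.55, SE 0.08, adjusted p = 0.000695), a call that held without any 1 of the 6 libraries (up to 0.0121), and was lower in HW3826 over GR1395 (-0.39, adjusted p = 0.005), which ended without HW3826 replicate 2 or GR1395 replicate 1 (up to 0.0728).

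By edgeR 1 gene of this list rose and 0 fell in HW3826 over N2, where DESeq2 called 3 as higher, 2 rose and 1 fell in GR1395 over N2, and 1 was higher and 2 were lower in HW3826 over GR1395. lin-14, which sets the time of rewiring, rose in GR1395 over N2 (0.33, adjusted p = 0.0332). Its value in HW3826 over N2 was about as large (0.35), with an adjusted p of 0.0502 by edgeR and 0.0127 by DESeq2, which called it, and HW3826 over GR1395 gave 0.01. cdk-5, which encodes a kinase needed to move synaptic material to the new sites, fell in GR1395 over N2 (-0.26, adjusted p = 0.0488). cdka-1, which encodes the activator of that kinase, was lower in HW3826 over GR1395 (-0.35, adjusted p = 0.0175), and hbl-1, another timing factor, rose in HW3826 over N2 (0.41, adjusted p = 0.049). Each of these 4 calls ended under more than 1 of the leave-outs. That of cdk-5 ended without any 1 of the 6 libraries, and that of hbl-1 without any but N2 replicate 1. The lin-14 call ended on removal of N2 replicate 2 or either GR1395 library. The cdka-1 call ended on removal of HW3826 replicate 1 or either GR1395 library. The hbl-1 call also ended with the length trend removed (0.0839), and DESeq2 and limma-voom did not call cdk-5.

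Genes of the muscle and motor neuron partners were read beside them. Of 9 organisers of receptor clusters, 2 rose in HW3826 over N2, the scaffold genes lin-2 (0.40) and frm-3 (0.40), and 2 rose in GR1395 over N2, lin-2 (0.33) and the neurexin gene nrx-1 (0.29). The lin-2 call in HW3826 ended without HW3826 replicate 2, and the other 3 without N2 replicate 2 or either library of the array strain (adjusted p up to 0.168), as well as with the length trend removed (0.067 to 0.243). In HW3826 over GR1395 0 passed by edgeR, DESeq2 or limma-voom and 1 had an unadjusted p under 0.05, with the netrin receptor gene unc-40 at 0.16 and the neuroligin gene nlg-1 at -0.14.

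Of the 13 acetylcholine receptor genes with counts, of 14 listed, the subunit gene unc-63 rose in GR1395 over N2 (0.45, adjusted p = 0.0306, up to 0.232 on removal of N2 replicate 2 or a GR1395 library). In the other comparisons 0 passed by edgeR, DESeq2 or limma-voom, with 0 at an unadjusted p under 0.05 in HW3826 over N2 and 1 in HW3826 over GR1395, where the assembly genes unc-50 and ric-3 had -0.11 and -0.10. Of 9 markers of cholinergic motor neurons, 0 passed against N2 by any of these tools, with 1 at an unadjusted p under 0.05 in HW3826 and 2 in GR1395. The acetylcholine vesicle transporter gene unc-17 had 0.07 in HW3826 over N2 and 0.05 in GR1395 over N2. unc-129, a TGF-beta family gene of these neurons, was lower in HW3826 over GR1395 (-0.36, adjusted p = 0.0101, up to 0.134 without HW3826 replicate 1 or GR1395 replicate 2). The list's summed level was 175 and 174 CPM in HW3826, 199 and 196 CPM in GR1395 and 183 and 179 CPM in N2.

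**Figure D5:**
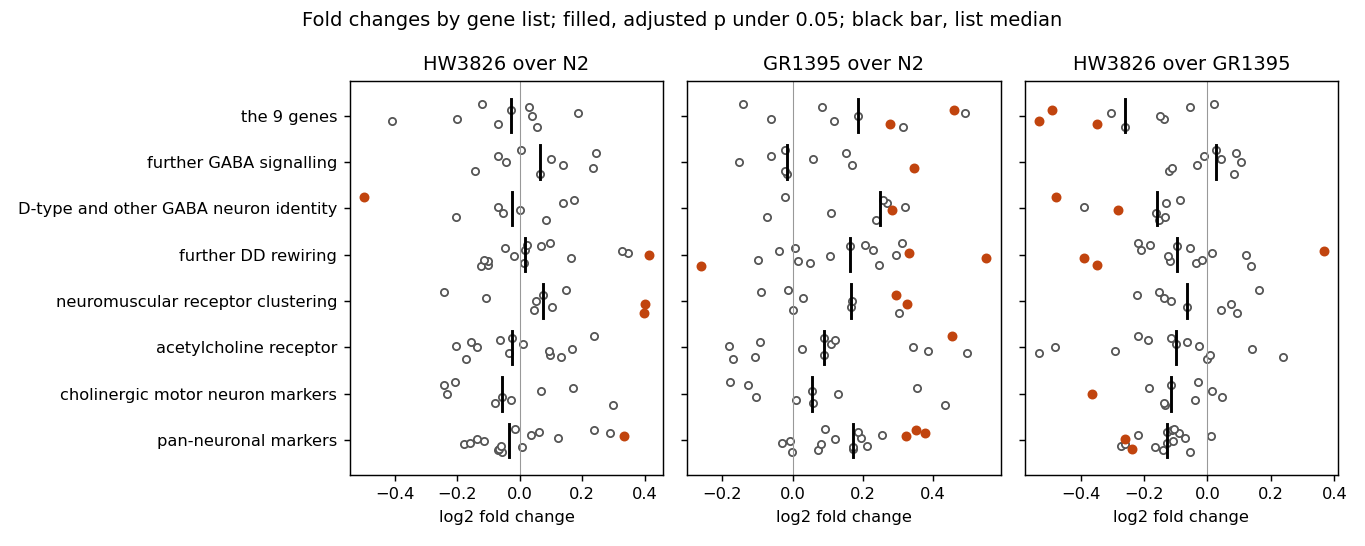
log2 fold change of each tested gene in the set of 9 and in 7 related lists, by comparison, filled where the adjusted p was under 0.05, with a black bar at the list's median. In GR1395 over N2 the medians of the 9 genes (0.19) and of the pan-neuronal markers (0.17) are above 0, and both are below 0 in HW3826 over GR1395 (-0.26 and -0.13). The medians of the other lists but 1 lie on the same sides, at 0.05 to 0.25 and at -0.16 to -0.06. Further GABA signalling is the exception, at -0.02 and 0.03.

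Markers of other tissues also differed between the strains, and their part in the values of the 9 genes was not tested. The summed level of 10 body wall muscle markers, the tissue that expresses unc-49, was 9572 and 9425 CPM in HW3826, 9976 and 9548 CPM in GR1395 and 8619 and 8424 CPM in N2. That of 7 intestine markers was 9712 and 9724 CPM in HW3826, 7101 and 7413 CPM in GR1395 and 8956 and 8777 CPM in N2. That of 8 epidermis markers was 248 and 271 CPM in HW3826, 229 and 242 CPM in GR1395 and 246 and 209 CPM in N2, and that of 6 germ line markers was 112 and 105 CPM in HW3826, 89.9 and 93.1 CPM in GR1395 and 96.99 and 105 CPM in N2. None of these markers was at 0 in every library. The sums are weighted to their most abundant genes. In N2 replicate 1 asp-1 and act-5 had 5695 and 2381 of the 8956 CPM of the intestine sum, and unc-54 had 3098 of the 8619 CPM of the muscle sum. In GR1395 over N2, 3 of the 7 intestine markers had positive values and 4 had negative ones.

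In HW3826 over N2 the edgeR calls were higher throughout, unc-22 and unc-89 of muscle, sym-1 and noah-1 of the epidermis and elt-2 and pgp-1 of the intestine, with 0 germ line genes called by edgeR, DESeq2 or limma-voom, 1 at an unadjusted p under 0.05, and glh-1 and pgl-1 at 0.11 and 0.12. GR1395 set against N2 showed other directions: the muscle genes myo-3, unc-54 and mlc-1 rose and unc-27 fell, sym-1 and noah-1 fell (-1.29 and -0.95), elt-2 and pgp-1 rose, act-5 and asp-1 of the intestine fell, and oma-1 and nos-2 of the germ line fell. In HW3826 over GR1395 mlc-1 was lower, and unc-27, sym-1, noah-1, act-5, ifb-2, asp-1, pgp-1, oma-1, pgl-1 and deps-1 were higher. In HW3826 over N2 the elt-2 and pgp-1 calls held without any 1 library, as did those of myo-3, sym-1, noah-1, pgp-1 and oma-1 in GR1395 over N2 and of sym-1, noah-1, act-5, ifb-2 and oma-1 in HW3826 over GR1395. Each of the other calls in these 4 lists ended without at least 1 library (adjusted p up to 0.253), and those of unc-22, unc-89 and unc-54 ended with the length trend removed (0.204 to 0.852). DESeq2 did not call nos-2 in GR1395 over N2 (0.104) or deps-1 in HW3826 over GR1395 (0.0839), where limma-voom called nos-2 as higher (0.0167). DESeq2 also called myo-3 (0.0179) and ifb-2 (0.0244) as higher in HW3826 over N2, and lev-11 (0.0278) and ifb-2 (0.0182) as lower in GR1395 over N2.

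The genes with the most similar pattern were sought by the root mean square difference between log2 CPM profiles over the 6 libraries, each centred on its mean, among tested genes of at least 5 CPM. For unc-47 this was odr-10, which encodes an olfactory receptor (0.0427). For irx-1 it was chup-1, a cholesterol uptake gene (0.0195), and for oig-1 it was R05G6.10 (0.038). The root mean square spread of these 3 members about their own means was 0.247, 0.176 and 0.26. With 6 libraries and 15024 genes a close match is a description of these libraries only.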

How the data were processed

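The authors deposited raw counts per gene and library for 20190 genes, with a gene length in bases, and log2 values that equal log2 of counts scaled to the mean library total plus 8. Only the counts were used. The submitters' processing notes name build ce11 and HISAT2 (version 1.10.0); for the counter, the annotation and the use of strand, nothing is given in the sources used here. Names and positions came from Ensembl release 115 (WBcel235, the assembly behind ce11), which matched 20105 identifiers. Per the labels' protocols, libraries were made with a stranded Illumina mRNA kit.

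Differences were tested with edgeR 4.0.16 (quasi-likelihood, R 4.3.3) on the deposited counts, with TMM factors of 0.977 to 1.03, the default filter, robust dispersions and all 6 libraries in 1 fit (3 residual degrees of freedom). P-values were adjusted by Benjamini and Hochberg over the 15024 genes tested, threshold 0.05. Standard errors and 95% intervals derive from the F statistic. CPM and RPKM use library totals. DESeq2 1.42.0, limma-voom (limma 3.58.1), other scalings and filters, removal of a length trend and leaving out each library were alternatives. The code was tested on simulated data.

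The 9 genes and the lists were chosen with earlier results of these data known. All 9 are named in each comparison. From each other list and comparison up to 4 called genes with the lowest adjusted p are named, or up to 2 with the highest mean CPM where none passed, and myrf-1 always.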

Additional observations from a re-analysis of the deposited data

How the results depend on the processing

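Leaving out each library in turn gave 378 to 1191 called genes in HW3826 over N2 (902 as reported), 656 to 3428 in GR1395 over N2 (2416) and 745 to 2940 in HW3826 over GR1395 (2179), with 0, 0 to 2 and 0 to 3 of the 9 genes called. The lowest counts were those without HW3826 replicate 2, GR1395 replicate 1 and GR1395 replicate 1. In GR1395 over N2, 1 of the 9 was called with DESeq2, with only the 4 libraries compared or with a replicate block. The lost call was that of irx-1. Scaling to pan-neuronal marker counts gave 0 in GR1395 over N2 and 0 in HW3826 over GR1395. How many of all tested genes passed with that scaling was not counted.

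The block of replicate numbers gave 594 genes in HW3826 over N2, 1766 in GR1395 over N2 and 1664 in HW3826 over GR1395. Deviations of same-numbered libraries correlated across genes at -0.417 (N2 and HW3826), -0.119 (N2 and GR1395) and 0.131 (HW3826 and GR1395). With 2 libraries a strain these values cannot show whether same-numbered libraries shared a batch, and the labels name none. Under the replicate block irx-1 was at 0.28 in GR1395 over N2 (adjusted p = 0.0624) and oig-1 at -0.53 in HW3826 over GR1395 (0.0614), and the other 3 calls held.

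Changes of sign concerned values that did not pass. unc-49 had -0.113 (HW3826 over N2) and -0.0646 (GR1395 over N2) with the length trend removed, and -0.0139 (GR1395 over N2) and 0.0684 (HW3826 over GR1395) with pan-neuronal scaling. Over the leave-outs in HW3826 over N2, unc-30 ranged from -0.00923 to 0.0884, unc-47 from -0.0769 to 0.0227, unc-49 from -0.0541 to 0.116, unc-55 from -0.373 to 0.178 and acr-12 from -0.0864 to 0.212. In GR1395 over N2, unc-49 ranged from -0.00186 to 0.17 and unc-55 from -0.398 to 0.155, and in HW3826 over GR1395 unc-55 ranged from -0.0596 to 0.103. The cause of these changes was not tested, beyond the fewer libraries of a leave-out. Depth limits unc-55, with 15 to 21 counts in a library.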
